A study of Mus musculus with 19 samples.

Results

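Hoxa9 was either clearly present or nearly absent in 15 BRAFV600E-driven skin tumours of the mouse, and its level divided them into 6 Hoxa9-expressing and 9 Hoxa9-silent tumours. A tumour counted as expressing at 1 CPM or more of Hoxa9 and as silent below that, where CPM is the count as a share of the library total on the usual scale for such tables. The series also held 4 samples of normal skin, so that 15 of 19 libraries entered the division. Expressing tumours were Ivl tumour 1, K5 tumour 1 and K14 tumours 1 to 4, and silent tumours were Ivl tumours 2 to 6 and K5 tumours 2 to 5. All 4 K14 tumours were therefore expressing, against 1 of 6 Ivl tumours and 1 of 5 K5 tumours.

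All 15 tumours carried an inducible BRAFV600E allele, an activated form of the BRAF kinase, switched on by a tamoxifen-dependent Cre in mice between 7 and 20 weeks of age. They differed in the promoter that drove the Cre. The Ivl (involucrin) promoter is active in keratinocytes committed to differentiate, and the K5 and K14 (keratin) promoters in basal keratinocytes. Per the methods of the study, the mice were on a C57BL/6J background, tamoxifen (Ivl) or 4-hydroxytamoxifen (K5 and K14) was put on the shaved back, and the skin, labelled WT, came from control littermates. The labels describe every tumour as a squamous cell carcinoma from a female mouse. They do not give the body site of a single tumour, and the text of the study places lesions of Ivl mice on the back, paws, ears and lips and those of K5 and K14 mice on the back, so body site was not tested. They also do not say that tumours of 1 genotype came from separate animals, so p-values measure the spread between these samples only.

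HOX genes encode homeodomain transcription factors that lie in 4 clusters. During development they are switched on in nested domains along the head-to-tail axis and along the limbs, with low-numbered genes reaching furthest towards the head, and skin cells of the adult keep a pattern that depends on body site. HOX proteins bind DNA together with cofactors of the TALE class (Pbx, Meis and Pknox), and Polycomb and Trithorax complexes hold the clusters silent or active. Hoxa9 itself is best known for its part in blood stem cells and leukaemia.

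Hoxa9 held 2308 counts in Ivl tumour 1, 438 in K5 tumour 1 and 1343, 1518, 610 and 1018 in K14 tumours 1 to 4. These were 33.9, 6.03, 26.6, 32.7, 11.9 and 17.8 CPM. Of the 9 silent tumours, 6 had 1 count and 3 had none. The member just inside the threshold was K5 tumour 1 at 6.03 CPM, and the one just outside was K5 tumour 4 at 0.0213 CPM, so that no tumour lay between these values. Normal skin had 0.241, 1.5, 0.209 and 0.39 CPM, above every silent tumour and below every expressing one. Since Hoxa9 chose the groups, its values and those of the other HOX genes are given as a description with no test.

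**Figure D1:**
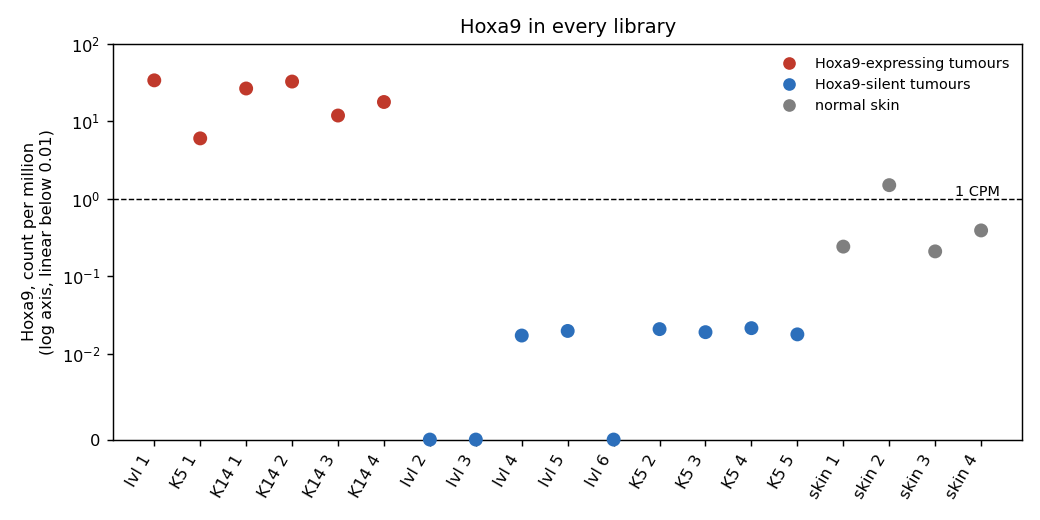
Hoxa9 in each library in CPM (vertical axis, log scale that is linear below 0.01), with the 6 Hoxa9-expressing tumours in red, the 9 Hoxa9-silent tumours in blue and the 4 skin samples in grey, and the threshold of 1 CPM as a broken line. Expressing tumours lie between 6.03 and 33.9 CPM and silent tumours between 0 and 0.0213 CPM.

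Sequences are shown for the genes on which the results turn: the 250 bases before the RefSeq start of Hoxa9, which defines the groups, those of Esr1, the gene with the smallest p outside the HOX clusters, and the mature microRNA of the one HOX-cluster microRNA gene whose levels did not overlap between the groups. The Hoxa9 stretch is chr6:52227371-52227620 on the minus strand of GRCm38.p6 and lies in an intron of a longer noncoding Hoxa9 transcript in the annotation. The Esr1 stretch is chr10:4611739-4611988 on the plus strand and lies in an exon of a noncoding Esr1 transcript. The microRNA is at chr11:96265187-96265208 on the plus strand, and its capitals mark the seed, bases 2 to 8. All are RefSeq sequences, written 5′ to 3′.
Hoxa9 upstream: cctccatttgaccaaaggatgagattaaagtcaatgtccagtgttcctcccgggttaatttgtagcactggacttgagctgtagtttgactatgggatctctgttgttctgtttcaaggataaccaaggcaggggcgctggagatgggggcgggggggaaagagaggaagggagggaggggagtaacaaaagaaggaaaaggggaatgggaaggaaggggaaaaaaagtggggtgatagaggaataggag
Esr1 upstream: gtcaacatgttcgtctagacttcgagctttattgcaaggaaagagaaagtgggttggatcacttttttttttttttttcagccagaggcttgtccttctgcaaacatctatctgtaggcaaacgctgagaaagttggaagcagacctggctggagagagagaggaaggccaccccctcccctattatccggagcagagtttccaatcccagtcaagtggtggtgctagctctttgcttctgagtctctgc
mmu-miR-196a-5p (Mir196a-1): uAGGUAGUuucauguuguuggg
Neither upstream stretch held, on either strand, the HOX-PBX letters TGATTTAT or TGATTGAT, the MEIS letters TGACAG, the full palindromic oestrogen response element or its shorter part AGGTCA, so no base is in capitals there. Among 32851 upstream stretches of 250 bases, 0.837%, 0.67%, 15.9%, 0.0639% and 14% held these motifs, in that order. The absence of a match says only that the letters were not in these windows.

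The levels below are CPM after scaling by the trimmed mean of M values (TMM CPM), which corrects for a few genes taking a large share of a library. On this scale Hoxa9 was at 6.96 at the lowest, 24.1 at the median and 35.5 at the highest in expressing tumours, and at 0, 0.0216 and 0.0253 in silent tumours. A floor of 3 counts in the shallowest silent library was 0.0758 TMM CPM, and the lowest expressing tumour was at least 91.8-fold higher than that floor. Floors cover counting error only. In these whole-tissue samples, fewer cells of a type and less RNA per cell cannot be told apart.

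The division by Hoxa9 ran along with 10 other HOX genes. Of the 37 HOX genes in the table, 35 passed the filter on low counts, and 11 (Hoxa9 included) were higher in every expressing than in every silent tumour; the other 26 overlapped and none was lower in every expressing tumour. The 11 were Hoxa6, Hoxa7, Hoxa9 and Hoxa10, Hoxb6 to Hoxb9, and Hoxc9 to Hoxc11, and no Hoxd gene was among them. For comparison, 0.0721% of the 27721 genes tested outside the clusters were higher in every expressing tumour and 0.0289% lower. Genes of 1 cluster overlap and share long transcripts, and whether strand was used in counting is not stated, so reads of neighbouring and antisense genes may be shared between them.

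In the Hoxa cluster on chromosome 6, Hoxa7, the neighbour of Hoxa9, had the most even level. In expressing tumours it lay at 38.8 at the lowest, 44.7 at the median and 47 at the highest TMM CPM. In silent tumours it lay at 0, 0.279 and 25.5, and the 2 highest silent values were 25.5 in Ivl tumour 4 and 4.1 in Ivl tumour 5, with the other 7 at 0.756 or less. Ivl tumour 4 thus had Hoxa7 at the level of the highest skin sample (skin 8.62 to 25.1) with a single Hoxa9 count. Hoxa10 lay between 0.413 and 4.25 TMM CPM with a median of 0.912 in expressing tumours and had no count in any silent tumour, at least 5.45-fold higher at its lowest than the floor. Hoxa6 lay between 0.814 and 5.5 in expressing tumours and between 0 and 0.694 in silent tumours.

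Lower-numbered genes of the cluster overlapped between the groups. Hoxa5 lay between 8.01 and 31.3 TMM CPM in expressing and between 0.0192 and 19.9 in silent tumours, where Ivl tumour 4 was again the highest. At the other end, Hoxa11 had 2 to 8 counts in 5 of 6 expressing tumours and none in K5 tumour 1 or any silent tumour, which is too few to order them. The step between the groups therefore covered Hoxa6 to Hoxa10.

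In the Hoxb cluster (chromosome 11, 96194316 to 96368256), Hoxb6 to Hoxb9 did not overlap between the groups. Hoxb9, the member of the same paralogue group as Hoxa9, lay between 3.66 and 20.5 TMM CPM in expressing tumours with a median of 8.96, and between 0 and 0.535 with a median of 0.186 in silent tumours. Hoxb7 lay between 3.19 and 28.1 against 0 to 0.595, and Hoxb8 between 2.16 and 30.3 against 0 to 0.0793. Hoxb6 lay between 0.335 and 28.6 against 0 to 0.0595, so its lowest expressing tumour was at least 4.42-fold above the floor. K5 tumour 1, the lowest expressing tumour for Hoxa9, was the highest for all 4 of these Hoxb genes. Hoxb4 overlapped, at 3.15 to 20.6 in expressing and 0.0192 to 6.56 in silent tumours.

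In the Hoxc cluster (chromosome 15, 102921103 to 103036852), Hoxc9 lay between 1.05 and 7.25 TMM CPM in expressing and between 0 and 0.694 in silent tumours. Hoxc10 lay between 0.384 and 2.99 against 0 to 0.139. Hoxc11 held 5 to 19 counts in each expressing tumour and at most 1 in a silent one, at 0.0768 to 0.438 TMM CPM against 0 to 0.0164, and its lowest expressing value was at the floor. Hoxc8 overlapped, at 0.479 to 43.8 in expressing and 0 to 2.33 in silent tumours, with its highest values of 43.8 in Ivl tumour 1 and 19.7 in K5 tumour 1. Hoxc13, which is active in hair and nail forming cells, went from 0.0154 to 7.48 in expressing tumours and from 0.96 to 25.7 in silent ones, with 25.7 and 25.2 in Ivl tumours 2 and 3.

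The Hoxd cluster (chromosome 2, 74668310 to 74765142) showed no such step. Hoxd8 lay between 4.1 and 21.9 TMM CPM in expressing and between 3.99 and 13.5 in silent tumours, with medians of 7.41 and 8.36. Hoxd9, again of the Hoxa9 paralogue group, lay between 2.01 and 6.94 against 1.55 to 4.76, with medians of 3.75 and 2.89. Every silent tumour therefore contained HOX transcripts. Summed over all 37 HOX genes, the level was 115 to 362 TMM CPM in expressing tumours, 14.4 to 78.1 in silent tumours and 160 to 297 in skin, and Ivl tumour 6 was the lowest.

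Some noncoding genes inside the clusters followed the same line, while most overlapped between the groups. Mir196a-1, the gene of miR-196a beside Hoxb9, lay between 0.689 and 1.91 TMM CPM in expressing and between 0 and 0.476 in silent tumours. These are reads over the gene in poly(A) libraries, which do not measure the mature microRNA. The antisense gene Hoxb3os lay between 0.184 and 2.22 against 0 to 0.0677. Among those that overlapped were Hoxaas2, Hoxaas3, Mir10a and Hotairm1, the last at 2.01 to 9.4 against 0.0385 to 6.55.

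**Figure D2:**
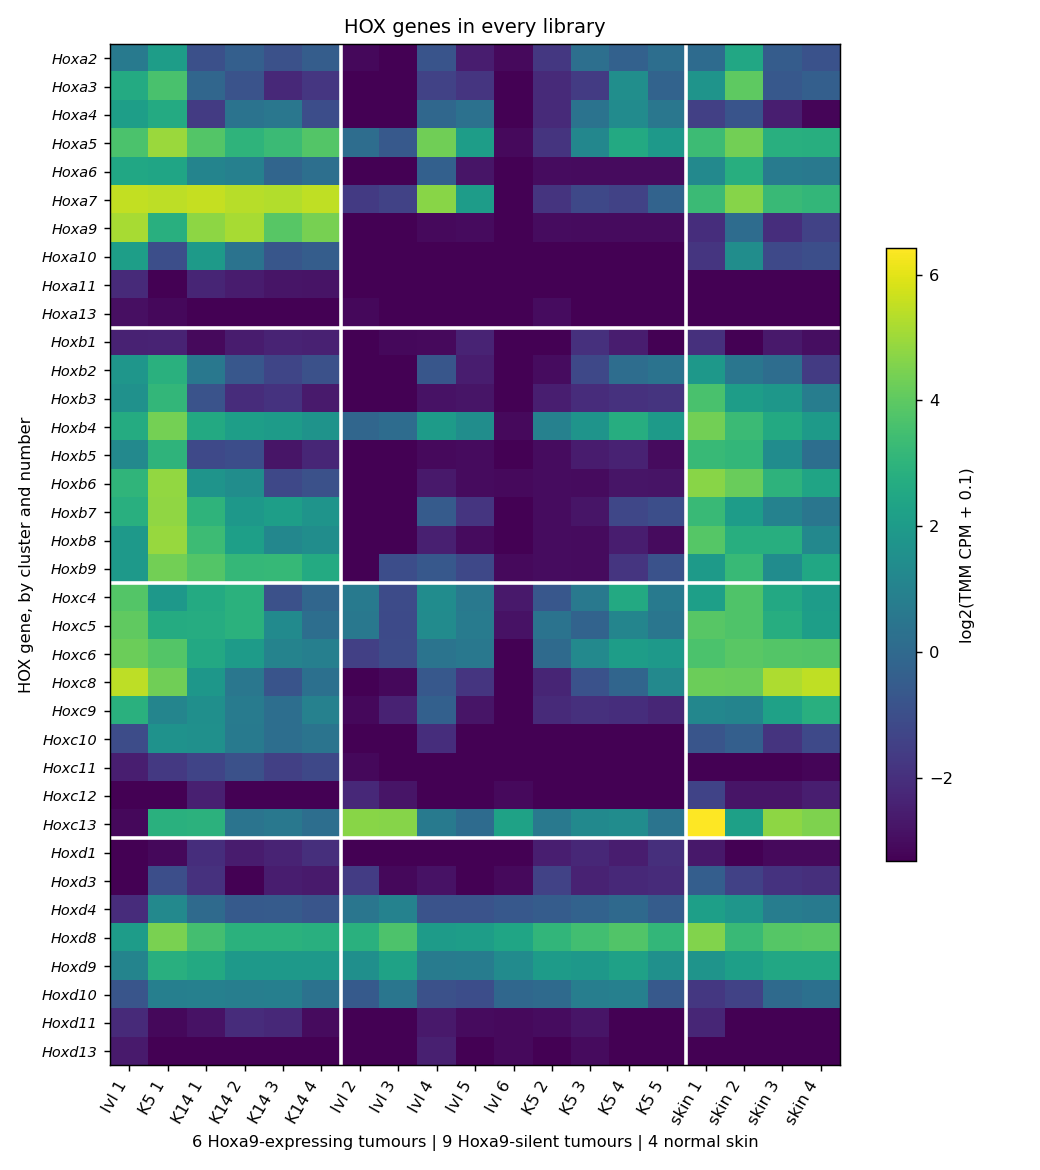
Level of HOX genes (rows, by cluster) in every library (columns) as log2 of TMM CPM plus 0.1, with white lines between expressing tumours, silent tumours and skin and between clusters. The 11 genes that did not overlap lie between Hoxa6 and Hoxa10, Hoxb6 and Hoxb9, and Hoxc9 and Hoxc11, while all 8 Hoxd genes overlapped.

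Depth was similar in both groups, with 46469682 to 72609771 counts in expressing and 46861579 to 64396890 in silent tumours. Ivl tumours 1, 2 and 3 and K5 tumour 1 stood apart: of 3876 sets of 4 libraries, theirs had the largest share of genes whose mean matched that of the other 15 within 0.1 log2 (96.6% of 13954 genes, next set 64.1%, median set 29.5%). The authors adjusted the table for a sequencing batch that the labels do not name. The batch sizes printed in the supplement of the study are the same as those of this set and of the remaining libraries. The legend there does not name the members, so whether these libraries were the smaller batch was not tested. Both expressing tumours that share a promoter with silent tumours, Ivl tumour 1 and K5 tumour 1, belong to these 4 libraries. Among the 11 tumours outside them, the expressing ones were the 4 K14 tumours, so Hoxa9 and the promoter cannot be told apart there.

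Outside the HOX clusters, the number of genes that differed between the groups depended on the fit. With the promoter as a covariate, 25 of 27721 genes passed an adjusted p of 0.05 in edgeR's quasi-likelihood test over the 15 tumours (0.0902%), 20 of them raised (0.0721%) and 5 lowered (0.018%) in expressing tumours. Of the 25, 21 were protein-coding and 7 of those were histone genes. Because every K14 tumour was expressing, the fitted difference rested on Ivl tumour 1 against the 5 other Ivl tumours and on K5 tumour 1 against the 4 other K5 tumours, with the K14 tumours adding to the estimate of spread only. The 4 other K5 tumours lay outside the set of 4 libraries that stood apart. Among K5 tumours, Hoxa9 and that set therefore cannot be told apart. The count was 7 of 24990 genes (0.028%) in the 11 tumours outside the set of 4, with 1 gene in common (Esr1), and 3 of 27721 (0.0108%) with no covariate. It was 297 without K5 tumour 1, 15 without K5 tumour 5 and 16 without K5 tumour 3 or Ivl tumour 6. Without Ivl tumour 1 it was 30, of which 6 were among the 25. By DESeq2 with the promoter it was 306 of 22571 genes (1.36%). In edgeR with the set of 4 as a further covariate it was 1200 of 27721.

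Esr1, the gene of oestrogen receptor alpha (chromosome 10, 4611593 to 5005614), had the smallest p. Its level was 109 TMM CPM in Ivl tumour 1, 12.7 in K5 tumour 1 and 30.2, 42.9, 110 and 114 in K14 tumours 1 to 4. In silent tumours it was 1.81 at the lowest, 4.28 at the median and 7.79 at the highest, so the groups did not overlap and the highest silent tumour lay below K5 tumour 1. The fitted log2 difference was 3.59 (SE 0.41, adjusted p = 0.0013), a 12.1-fold higher level. Normal skin had 16.3, 28.1, 38.8 and 40.7 TMM CPM, above every silent tumour and within the range of expressing tumours.

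The Esr1 difference was 4.29 (SE 0.34, adjusted p = 0.0358) among Ivl tumours alone, where Ivl tumour 1 by itself was set against 5 silent tumours and assumed to vary as they do. It was 4.39 (SE 0.47, adjusted p = 0.0104) in the 11 tumours outside the set of 4, a contrast of K14 tumours with Ivl and K5 tumours. Without Ivl tumour 1 it was 2.51 and did not pass (adjusted p = 0.118). The inducible Cre of these mice is fused to part of the human oestrogen receptor, and reads from it cannot be told from Esr1 reads in a table of gene counts; this was not tested.

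Lama5, the laminin alpha 5 chain of the epithelial basement membrane (chromosome 2, 180176373 to 180225859), was also higher in every expressing than in every silent tumour. It lay at 179 TMM CPM in Ivl tumour 1, 131 in K5 tumour 1 and 90 to 106 in the K14 tumours. Silent tumours lay at 46.5 at the lowest, 74.9 at the median and 81.9 at the highest, and skin at 79 to 181. The log2 difference was 1.14 (SE 0.17, adjusted p = 0.0118), against 0.40 (adjusted p = 0.194) in the 11 tumours outside the set of 4. Without Ivl tumour 1 it was 0.76 and lost the call.

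**Figure D3:**
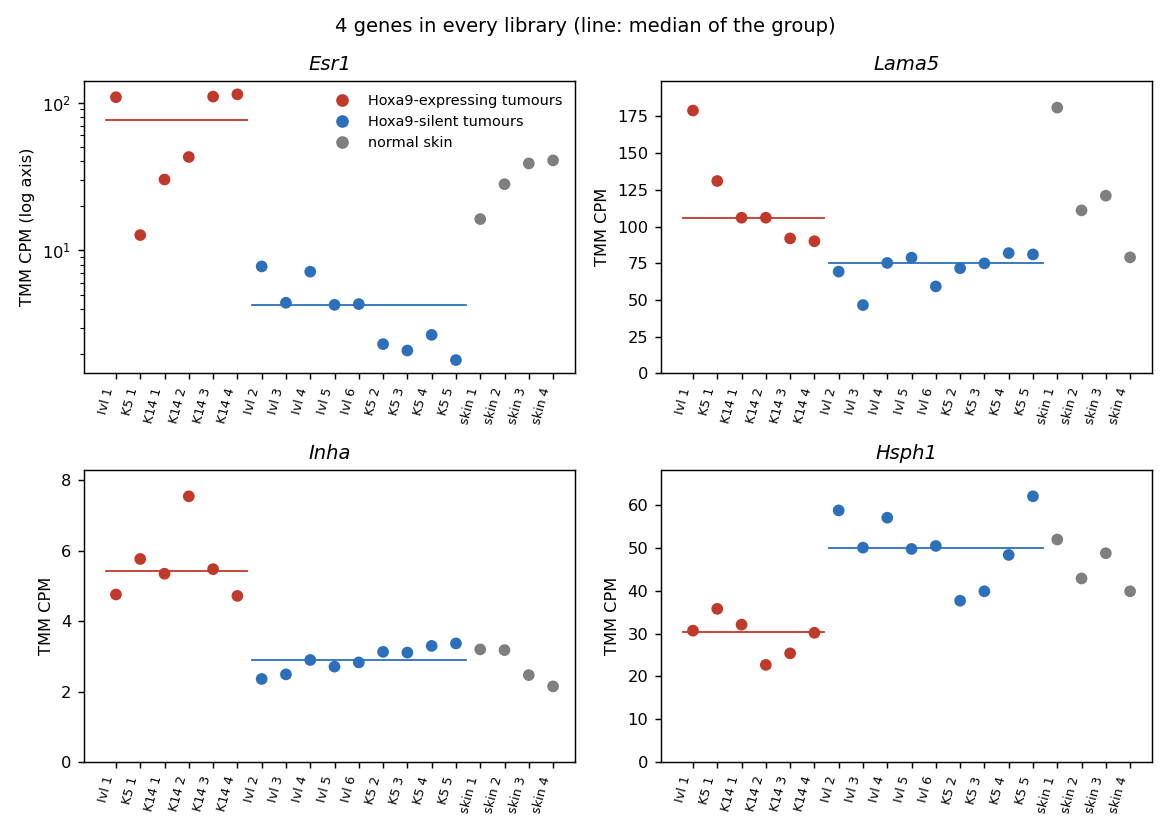
TMM CPM of Esr1 (log axis), Lama5, Inha and Hsph1 in each library, with expressing tumours in red, silent tumours in blue, skin in grey and a line at each tumour group's median. In all 4 panels the expressing and silent tumours do not overlap; Esr1 spans 12.7 to 114 against 1.81 to 7.79.

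For most other called genes Ivl tumour 1 and K5 tumour 1 lay past every silent tumour, and for some of them K14 tumours did too. Of the 25, 23 had both of these tumours past every silent tumour in the called direction. The fit called genes by these same tumours, so this layout largely follows from the call. In 3 genes all 4 K14 tumours were there too (Esr1, Lama5 and a predicted gene). In 18 at least 1 K14 tumour was past every silent tumour and in 7 none was. For all 25, each of the 4 skin samples lay on the same side of the silent median as the call. No skin sample was among the 4 libraries that stood apart, and the part of the batch adjustment in this was not tested. Of the 23 that could be tested in the 11 tumours outside the set of 4, 18 kept their sign and only Esr1 passed. The share of all genes tested with each of these layouts was not counted, so these counts describe the called genes only.

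The 7 called genes of the histone family code for the core proteins around which DNA is wound. The share of histone genes called among those tested was not counted, so their number describes the called genes only. Hist1h4c lay at 3.52 TMM CPM in Ivl tumour 1 and 25.5 in K5 tumour 1, against 0.703 to 1.25 in K14 tumours and 0.658 to 1.44 in silent tumours (log2 difference 3.53, SE 0.43, adjusted p = 0.0024). Hist1h2ab (3.45, SE 0.46, adjusted p = 0.00469), Hist1h2bj (2.92, SE 0.42, adjusted p = 0.00836), Hist1h4f (4.43, SE 0.65, adjusted p = 0.0097) and Hist1h2ak (4.01, SE 0.65, adjusted p = 0.0215) showed the same layout, with K14 tumours inside or near the silent range. Without K5 tumour 1 the differences of Hist1h4c, Hist1h2bj and Hist1h4f were 1.87, 2.31 and 3.45 and lost the call, while Hist1h2ab kept it with any 1 tumour left out. Hist1h2ak lost it without Ivl tumour 1 (3.27), K5 tumour 3, 4 or 5, or Ivl tumour 6. Skin lay above every silent tumour for all 5, for example 12.4 to 20.5 TMM CPM for Hist1h4c. Members of this family are near-identical in sequence, so their counts may be split between copies.

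Most histone mRNAs end without a poly(A) tail, and their sum was higher in each of the set of 4 libraries than in every other tumour. Summed histone CPM was 438 and 374 in the expressing Ivl tumour 1 and K5 tumour 1, 243 and 476 in the silent Ivl tumours 2 and 3, 123 to 174 in K14 tumours and 109 to 164 in the other silent tumours, with 723 to 1910 in skin. Rn7sk, a small nuclear RNA that is also not polyadenylated, was at 2.12 and 2.36 CPM in Ivl tumour 1 and K5 tumour 1 but at 1280 and 934 in Ivl tumours 2 and 3. It was at 6.63 to 11.8 in K14 tumours, 5.1 to 13.3 in other silent tumours and 2280 to 3280 in skin. The part of RNA selection or quality in the histone result was not tested. In the 11 tumours outside the set, the Hist1h4c difference was -0.22 (adjusted p = 0.75), that of Hist1h2ab -0.04 and that of Hist1h4f -0.40.

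Among the other raised genes, Ghr, the growth hormone receptor, was at 180 TMM CPM in Ivl tumour 1, 56.4 in K5 tumour 1 and 37 to 42.1 in K14 tumours, against 23.3 to 40.5 in silent tumours and 79.5 to 151 in skin. Its log2 difference was 1.73 (SE 0.26, adjusted p = 0.0118), and without Ivl tumour 1 it was 0.57 and lost the call. Pik3c2g, a class II phosphoinositide 3-kinase, was at 10.4 in Ivl tumour 1, 1.54 in K5 tumour 1 and 0.605 to 1.36 in K14 tumours, against 0.256 to 0.981 in silent tumours (3.11, SE 0.46, adjusted p = 0.0097). Without Ivl tumour 1 its difference was 1.82 and lost the call. Acsf2, a mitochondrial acyl-CoA synthetase, was at 15.3 and 21.7 in these tumours and at 5.64 to 8.54 in K14 tumours, against 3.14 to 7.24 (1.65, SE 0.22, adjusted p = 0.00532; without Ivl tumour 1, adjusted p = 0.0572). Zfp551, a zinc finger gene (1.72, SE 0.28, adjusted p = 0.0215), and Lrrc29, a gene of a leucine-rich repeat protein (1.63, SE 0.28, adjusted p = 0.0367), also rose, with levels of 1.2 to 3.46 and 1.39 to 3.55 in expressing tumours. Zfp551 lost the call without Ivl tumour 1 (1.37), Ivl tumour 5 or K5 tumour 4 or 5, and Lrrc29 without any of 11 tumours, among them Ivl tumour 1 (1.48). The remaining called protein-coding genes, Slc43a2, Mvb12b, Hist1h2ai and Hist1h3e, were raised too; they fall outside the naming rule and were named after their values were seen.

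All 5 lowered genes were protein-coding, and all were lower in skin than in every tumour. Klk8, a kallikrein protease of the outer epidermis, fell to 184 TMM CPM in Ivl tumour 1 and 195 in K5 tumour 1, against 500 to 730 in K14 tumours, 596 to 1050 in silent tumours and 37.3 to 65.2 in skin (log2 difference -1.96, SE 0.24, adjusted p = 0.0024). Fetub, a protease inhibitor of the cystatin family, lay at 37.6 and 7.48 in these tumours against 100 to 499 in silent tumours and 109 to 206 in K14 tumours (-3.36, SE 0.47, adjusted p = 0.00836). Slc20a1, a phosphate transporter, was at 48.2 and 87.7 against 104 to 171 (-1.09, SE 0.18, adjusted p = 0.0215). Serpina9 (-1.79, SE 0.32, adjusted p = 0.0424), a serine protease inhibitor, and Cemip (-1.74, SE 0.32, adjusted p = 0.0469), which takes part in breaking down hyaluronan, fell in the same 2 tumours, with K14 values within or across the silent range. Fetub kept its call with any 1 tumour left out. Without Ivl tumour 1 the differences were -1.90 for Klk8 (adjusted p = 0.0584), -0.88 for Slc20a1, -2.09 for Serpina9 and -1.29 for Cemip, and these lost the call. Slc20a1 also lost it without K5 tumour 3, 4 or 5, Serpina9 without any of 10 tumours and Cemip without any of 11.

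**Figure D4:**
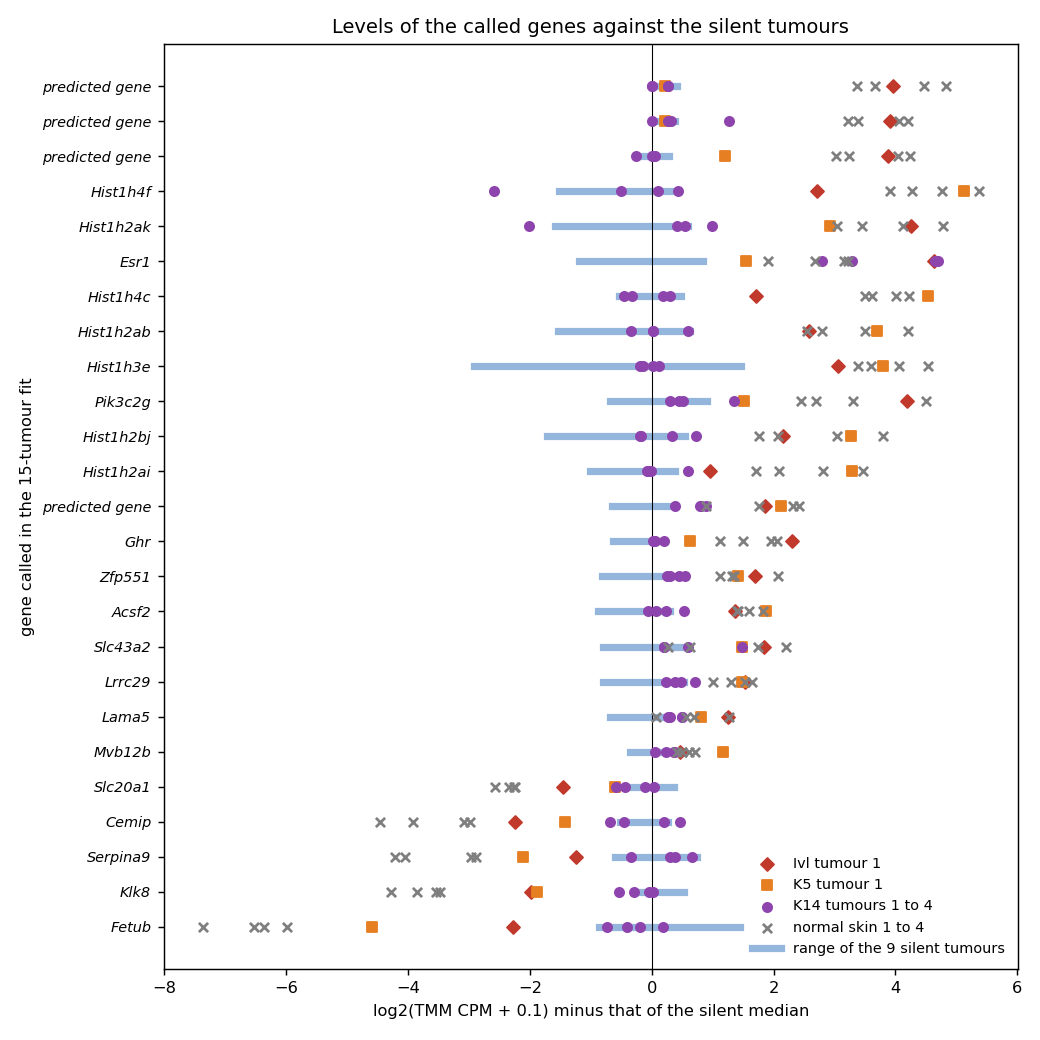
The 25 called genes (rows), shown as log2 of TMM CPM plus 0.1 relative to the silent median, for Ivl tumour 1 (diamond), K5 tumour 1 (square), the K14 tumours (circles) and skin (crosses), with the blue bar spanning the 9 silent tumours. In 23 genes the diamond and the square, on which the calls rest, both lie beyond the bar on the called side. In 3 genes all 4 K14 circles do.

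A further 25 genes outside the clusters did not overlap between all 6 expressing and all 9 silent tumours but missed the adjusted p in the promoter fit; with Esr1, Lama5 and a predicted gene the total was 28, of which 20 were higher and 8 lower in expressing tumours (the 0.0721% and 0.0289% given above). Inha, Hsph1 and Nod2 were picked from these after their values were seen. Inha, the inhibin alpha subunit that opposes activin signalling, lay between 4.72 and 7.55 TMM CPM in expressing tumours (median 5.41) and between 2.36 and 3.37 in silent tumours (median 2.9), with skin at 2.15 to 3.2. Its log2 difference was 0.84 (SE 0.20, adjusted p = 0.211) with the promoter in the fit and 0.94 (SE 0.15, adjusted p = 0.0364) without it. By DESeq2, with the promoter, it was 0.85 and passed (adjusted p = 2.76e-04). Ivl tumour 1 at 4.76 and K5 tumour 1 at 5.77 were within the K14 range for this gene.

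Hsph1, a heat shock chaperone of the Hsp110 family, lay between 22.7 and 35.8 TMM CPM in expressing and between 37.7 and 62.1 in silent tumours, with skin at 39.9 to 52. Its difference was -0.59 (SE 0.19, adjusted p = 0.424) with the promoter and -0.78 (SE 0.13, adjusted p = 0.0378) without it. Nod2, an intracellular sensor of bacterial cell wall fragments, lay between 14.2 and 20 against 24 to 54.7 (-1.03, SE 0.24, adjusted p = 0.172), and skin was at 5.43 to 16.1. The Nod2 difference was -1.02 and passed by DESeq2 (adjusted p = 0.00458), and it was -1.04 and passed by edgeR with K5 and K14 as 1 level (adjusted p = 0.0244). In a fit without the promoter, or with K5 and K14 as 1 level, the 4 K14 tumours weigh on the difference. Hoxa9 and promoter are then partly mixed.

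In the 11 tumours outside the set of 4, the called genes besides Esr1 were Ntng2, Ahnak2, Gypc and Tfrc and 2 predicted genes or pseudogenes, also named after their values were seen. Tfrc, the transferrin receptor through which cells take up iron, lay between 47.2 and 74.5 TMM CPM in K14 tumours and between 99.3 and 170 in the 7 silent tumours (log2 difference -1.18, SE 0.16, adjusted p = 0.0315). Of the 4 libraries left out, the expressing Ivl tumour 1 and K5 tumour 1 were at 168 and 74.2, and the silent Ivl tumours 2 and 3 at 103 and 72.6. Gypc, a glycophorin that anchors the membrane skeleton, lay between 9.9 and 16.3 in K14 tumours against 0.952 to 3.38 (2.59, SE 0.35, adjusted p = 0.0315), while Ivl tumour 1 was at 1.04, K5 tumour 1 at 7.54 and the silent Ivl tumours 2 and 3 at 7.24 and 13.5. Of these 6 genes none passed in the 15-tumour fit, where the adjusted p of Tfrc was 0.947 and that of Gypc 0.976.

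Ivl tumour 1 and K5 tumour 1 differed unequally from the silent tumours of their own promoter for some genes. Setting Ivl tumour 1 against the other Ivl tumours and K5 tumour 1 against the other K5 tumours, the 2 differences were unlike for 109 of 27721 genes (0.393%, adjusted p of the interaction under 0.05), with the Ivl difference above the K5 difference in 73 and below in 36. Of the 25 called genes only Ghr was among them (Ivl minus K5 difference 1.89 on the log2 scale, SE 0.30, adjusted p = 0.0234). This test compares 2 single tumours, each with its own silent group. The count went from 19 without K5 tumour 3 to 591 without Ivl tumour 3, and was 412 without Ivl tumour 2, 64 without K5 tumour 2, 40 without K5 tumour 4, 71 without K14 tumour 3 and 59 without K14 tumour 4.

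Gene lists were read by counts and medians. None of 314 list genes tested outside the clusters passed in the promoter fit by edgeR, and 31 (9.87%) had an unadjusted p under 0.05, beside 6.77% of all genes tested. DESeq2 called 5 of the 303 that it gave an adjusted p (1.65%), beside 1.36% of all genes: Otx1, Flg2, Clec4d, Il1b and Krt72. The median log2 difference of all genes was -0.03, beside which the medians of the lists are given below.

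Of the 9 HOX cofactors of the TALE class, none passed and 3 had an unadjusted p under 0.05 (median log2 difference 0.09). Meis1 was at 41.7 TMM CPM in Ivl tumour 1, but at 4.43 in K5 tumour 1 and 5.86 to 10.3 in K14 tumours, against 4.91 to 9.42 in silent tumours and 21.2 to 35.4 in skin. Its difference was 1.58 (SE 0.45, adjusted p = 0.318), and -0.52 without Ivl tumour 1. Without K5 tumour 1 it was 2.59 and passed (adjusted p = 0.00158). The differences of Ivl tumour 1 and K5 tumour 1 from the silent tumours of their promoter were unlike for Meis1 (3.11, SE 0.55, adjusted p = 0.0296), a test that compares 2 single tumours. Meis2 was at 22.6 in Ivl tumour 1, 5.73 in K5 tumour 1 and 7.97 to 12.7 in K14 tumours, against 4.65 to 8.5 in silent tumours, with a difference of 0.98 (SE 0.30, adjusted p = 0.364). Without K5 tumour 1 it was 1.65 and passed (adjusted p = 0.011), and without Ivl tumour 1 it was -0.05.

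None of the other cofactors passed. The log2 differences were -0.09 for Pbx2, 0.09 for Pbx3, 0.61 for Pbx4, -0.20 for Meis3 and 0.03 for Pknox1, with adjusted p between 0.813 and 0.985. Pknox2, with no more than 0.744 TMM CPM in any expressing tumour and a median of 0.419 in silent ones, had a difference of -3.78 with an SE of 2.18. Of the 23 tested Trithorax, Polycomb and other regulators of the clusters none passed and none had an unadjusted p under 0.05; the median was -0.01, and Phc1, a Polycomb subunit, had the smallest p (0.48, SE 0.23, adjusted p = 0.726). Of 12 genes known as downstream of HOXA9 in blood cells none passed (median -0.33), with Cd34, a stem cell surface protein, at 0.76 (SE 0.30, adjusted p = 0.623).

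Genes that mark position on the body other than HOX genes were described from 2 lists. Of 18 craniofacial position factors none passed by edgeR, 15 had a negative and 3 a positive difference, and the median was -0.99. Otx1, a homeobox gene of the anterior head, lay between 0.0239 and 0.345 TMM CPM in expressing tumours (median 0.0916) and between 0.324 and 63.9 in silent tumours (median 1.36), with 63.9 in Ivl tumour 6 and skin at 0.0566 to 0.316. The groups overlapped by K14 tumour 2 and K5 tumour 5 alone. Its difference was -6.24 (SE 2.05, adjusted p = 0.464) by edgeR and -5.90 (SE 1.28, adjusted p = 7.15e-04) by DESeq2. Of 21 trunk and limb factors none passed (median -0.38), and Emx2 had the smallest p (1.19, SE 0.36, adjusted p = 0.362). Pitx1, which specifies the hind limb and also marks squamous tumours, was at 218 in Ivl tumour 1, 6.29 in K5 tumour 1 and 50.5 to 78.5 in K14 tumours, against 27.1 to 295 in silent tumours (-0.54, SE 0.90, adjusted p = 0.938). It was -3.42 without Ivl tumour 1 and 0.60 without K5 tumour 1.

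Sox2, a transcription factor of stem cells and of squamous tumours, was at 15 TMM CPM in Ivl tumour 1 and at 31.2 and 32 in the silent Ivl tumours 4 and 5. It lay at 0.127 to 1.01 in the other 5 expressing tumours and between 0.152 and 4.48 in the other 7 silent tumours (-0.81, SE 1.0, adjusted p = 0.904). The keratins of mucosal epithelium showed the same overlap. Krt13 was at 985 in Ivl tumour 1, at 2440 and 2590 in Ivl tumours 4 and 5, at 0.0318 in K5 tumour 1 and at 6.73 to 15.4 in K14 tumours (-1.47, SE 1.42, adjusted p = 0.874). Krt4 ran from 0.0318 to 17.5 in expressing and from 0.605 to 81.9 in silent tumours (-1.54, SE 1.14, adjusted p = 0.838). These differences rested on single tumours: without Ivl tumour 1 they were -2.67 for Sox2, -8.91 for Krt13 and -4.77 for Krt4, and without K5 tumour 1 they were 0.03, -0.20 and -0.61. Of the 12 oral and mucosal genes none passed (median -0.99, and -2.73 in the 11 tumours outside the set of 4).

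Keratinocyte markers, which the label of squamous carcinoma calls for, were counted in large sums in every tumour but did not part the groups. Of 13 basal, 15 differentiated and 12 wound keratinocyte genes none passed by edgeR, with medians of -0.07, -0.11 and -0.72. Summed basal markers were at 12700 TMM CPM in Ivl tumour 1, 47100 to 72200 in the 5 other expressing tumours and 34800 to 61100 in silent tumours, with 5000 to 10700 in skin. Krt5, the basal keratin, had the smallest p of that list (-0.84, SE 0.30, adjusted p = 0.546). Flg2, a late differentiation gene, was at 1250 in K5 tumour 1 and 203 in Ivl tumour 1, against 78.9 to 146 in K14 tumours and 28.9 to 159 in silent tumours (2.87, SE 0.53, adjusted p = 0.0584 by edgeR and 1.20e-04 by DESeq2). Krt17 led the wound list (-1.45, SE 0.60, adjusted p = 0.653).

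Markers of other cell types moved with single tumours. The 10 neutrophil genes all had negative differences (median -1.94, none passed), and their sum was 114 TMM CPM in Ivl tumour 1, 1670 to 6710 in the other expressing tumours, 799 to 6620 in silent tumours and 14.6 to 57.7 in skin. DESeq2 called Clec4d (-2.86, SE 0.75, adjusted p = 0.013) and Il1b (-2.63, SE 0.70, adjusted p = 0.0158) of this list. The 12 skeletal muscle genes all had negative differences (median -3.95), with sums of 6720 and 2760 in Ivl tumours 2 and 3 and 11.4 to 714 in expressing tumours, where Tnnc2 was at 0 in Ivl tumour 1; in the 11 tumours outside the set the median was 0.38. The 8 melanocyte genes (median 2.04) summed to 195 in K5 tumour 1 and 4.16 in Ivl tumour 1, where Slc45a2 was at 0, against 14 to 72.7 in silent tumours. In the 11 tumours the median of the melanocyte genes was 0.04. Fibroblast genes summed to 2530 TMM CPM in Ivl tumour 1, 21200 in K5 tumour 1, 6100 to 18300 in K14 tumours and 3160 to 14600 in silent tumours. Endothelial genes summed to 122, 496, 274 to 521 and 153 to 528 in the same order. Macrophage genes summed to 134, 503, 232 to 517 and 254 to 970. For each of these 3 lists Ivl tumour 1 was thus below every silent tumour, with no marker at 0. The part of these cell types in the called genes was not tested.

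For the remaining lists no member passed by edgeR and the median differences were -2.45 for 19 hair follicle genes (0.73 in the 11 tumours), -1.74 for 10 sebaceous genes, -0.07 for 16 fibroblast genes and -0.32 for 10 endothelial genes. They were -0.46 for 11 macrophage, -0.76 for 11 T cell, 0.79 for 8 mast cell and -0.29 for 10 adipocyte genes. In the 11 tumours the medians were 0.31 for sebaceous, 0.26 for fibroblast and 0.42 for endothelial genes. There they were -0.04 for macrophage, 0.21 for T cell, 0.45 for mast cell and -0.54 for adipocyte genes. DESeq2 called Krt72, an inner root sheath keratin with no count in either Ivl tumour 1 or K5 tumour 1. The 17 proliferation genes had a median of 2.4e-03, the 18 MAPK output genes -0.12 and the 18 glycolysis genes -0.01, so that these did not differ in median from all genes by more than 0.1. The list of 22 genes that the study discusses, which was chosen on these samples and is not independent evidence, had a median of -0.70 with none passed.

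**Figure D5:**
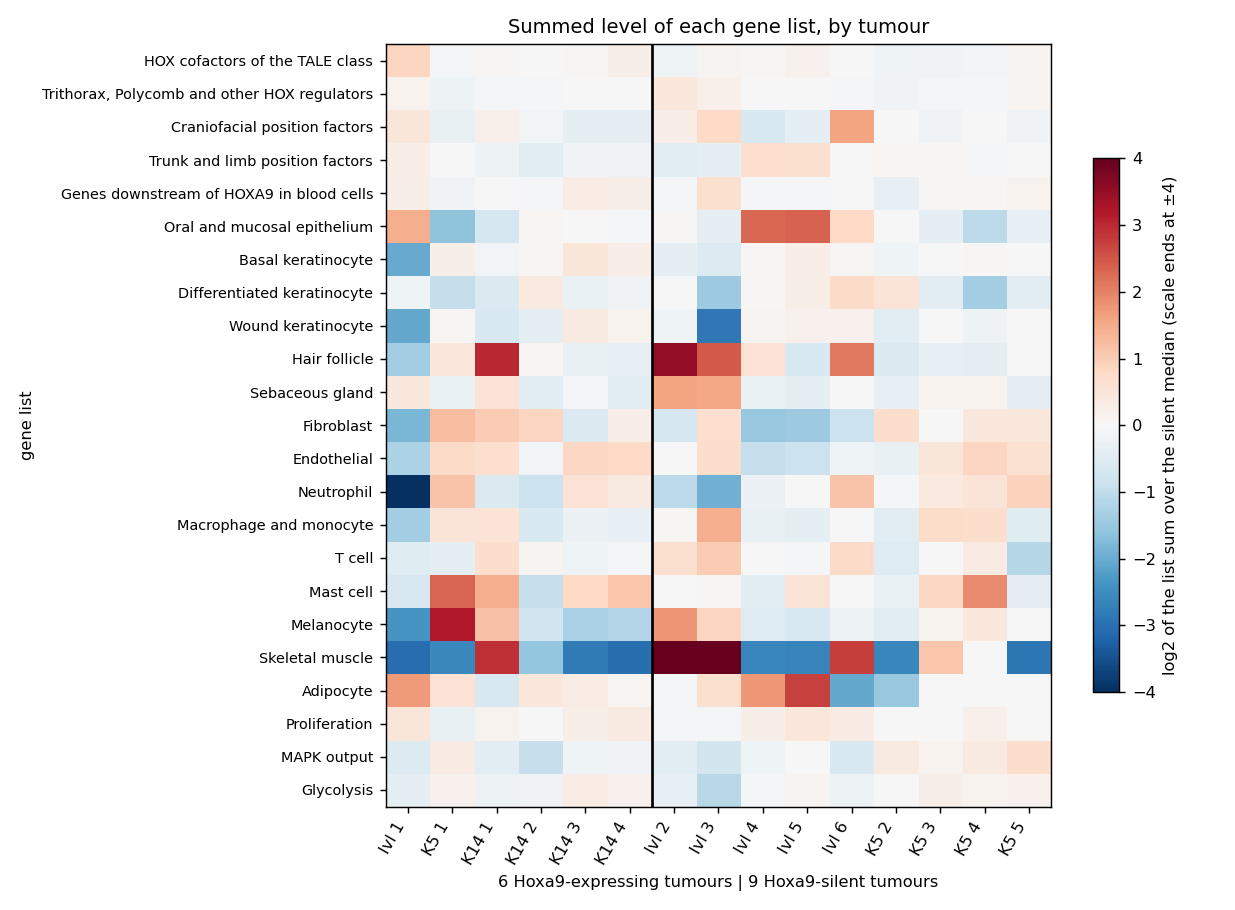
Summed TMM CPM of each of 23 gene lists (rows) in the 15 tumours (columns) as log2 of the sum over the silent median, with the colour scale ending at plus and minus 4 and a black line between expressing and silent tumours. Ivl tumour 1 is low for neutrophil, basal keratinocyte, fibroblast, endothelial and macrophage genes, K5 tumour 1 is high for melanocyte genes, and Ivl tumours 2 and 3 are high for muscle genes, while no list divides all expressing from all silent tumours.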

How the data were processed

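RNA of 15 tumours and 4 skin samples was measured as strand-specific poly(A) libraries with paired-end sequencing. As the labels and the study's methods state, the authors checked reads with FastQC 0.11.8, trimmed them with TrimGalore, aligned them with HISAT2 2.1.0 to GRCm38, assigned them to genes with featureCounts (Subread 1.6.3) and adjusted the table for batch with ComBat-seq. The deposited values are therefore estimated counts; they were whole, so rounding changed 0 values. Plain counts had been assumed in the design; the same test was used. An adjustment of this kind can alter low counts and the spread between libraries. The table held 34807 genes, of which 34694 matched GENCODE M21, used for positions. Totals were 45715309 to 72609771 per library, and a floor of 3 counts was 0.0459 to 0.0758 TMM CPM in the tumours.

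Tumours were divided at 1 CPM of Hoxa9 (count over library total). The filter asked for 5 or more counts in 1 or more tumours, and the genes left were tested in edgeR 4.0.16 (R 4.3.3) with TMM factors over all 19 libraries and the quasi-likelihood F test (robust, two-sided), promoter as a factor of 3 levels, and Benjamini-Hochberg adjustment over all genes tested, with the 62 genes in the HOX clusters left out of counts. Replicates were compared by chi-square per degree of freedom (37 pairs, lowest 25.9), and no library was a copy of another. The edgeR step was tested on simulated independent counts with the same dispersion for every gene and no batch adjustment. These settings differ from the deposited table, so this checked the running of the step only. The SE printed for edgeR is the absolute log2 difference divided by the square root of its F value. Alternatives included DESeq2 1.42.0, which gives an SE of its own, and the study used another version of it. Named genes were the HOX genes, up to 12 protein-coding genes raised and 12 lowered, by smallest adjusted p among those past a log2 difference of 1, the member with the smallest p of a list, and Sox2, Krt13, Krt4, Pitx1 and the TALE genes. Some of these genes are not reported here. The members and lists were chosen with earlier results of these data known.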

Additional observations from a re-analysis of the deposited data

Results flagged for a closer look

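A value was looked at again where the highest or lowest tumour of a group stood off from the rest by Dixon's test at the 95% level, or where the Ivl and K5 differences were unlike. Dixon's test was run on 66 groups of values and picked out 7, where chance gives about 1 in 20.

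Among expressing tumours, Ivl tumour 1 was highest for Pik3c2g (10.4 TMM CPM, others 0.605 to 1.54) and for Ghr (180, others 37 to 56.4). Among silent tumours, Ivl tumour 3 was lowest for Hist1h2ab (0.0765, others 0.354 to 0.693), Hist1h2bj (0.367, others 0.985 to 2.13) and Acsf2 (3.14, others 4.96 to 7.24). Ivl tumour 2 was lowest for Ghr (23.3, others 32.6 to 40.5) and for Hist1h2ak (0.0656, others 0.256 to 0.655). All 7 values came from the 4 libraries that stood apart. The calls of these genes rested partly on those libraries, so this layout partly follows from the call.

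The Ivl difference exceeded the K5 difference for Ghr by 1.89 on the log2 scale (adjusted p = 0.0234) and for Meis1 by 3.11 (adjusted p = 0.0296) in edgeR's test of the interaction, in which Ivl tumour 1 and K5 tumour 1 each stood alone.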

How the results depend on the processing

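The count of called genes moved from 25 to 3 with no covariate, 7 with K5 and K14 as 1 level, 7 in Ivl tumours alone, 58 with all 19 libraries, 7 in the 11 tumours outside the set of 4, 1200 with that set as a covariate and 306 with DESeq2. Alternatives added after seeing the data gave 46 (those 11 tumours, K5 and K14 as 1 level), 409 (the 4 tumours of the set alone) and 85 (without Ivl tumours 2 and 3). With 1 tumour left out it was 15 to 297. It was 23 with DESeq2 size factors, 27 with filterByExpr, 25 with no filter and 25 with Hoxa9 thresholds of 0.5 or 5 CPM. The interaction count went from 109 to 233 with filterByExpr, and was 19 to 591 with 1 tumour left out; it could not be fitted without Ivl tumour 1 or K5 tumour 1, nor could the promoter in 3 levels in the 11 tumours. The causes were not tested. Of 31 alternatives, Esr1 passed in 28, at 3.51 to 5.06. Some of these could not move the estimate. Thresholds of 0.5 and 5 CPM gave the same groups, and leaving out a K14 tumour kept it at 3.59. Esr1 missed without Ivl tumour 1 (2.51), in the 4 tumours alone (3.32, adjusted p = 0.422) and under the replicate block.

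Replicate numbers of the titles did not pair the samples: 4 of 13 same-number pairs had correlations above 0.1 (range -0.35 to 0.22). Under the replicate block 0 genes passed in edgeR, with 1629 at an unadjusted p under 0.05, and Esr1 was at 4.93 (adjusted p = 0.178).

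Some log2 differences changed sign. In the 11 tumours these were Hist1h4c -0.22, Hist1h2ab -0.04, Hist1h4f -0.40, Serpina9 0.14, Pbx3 -0.20 and Pknox1 -0.03, and with K5 and K14 as 1 level there Hist1h4c -0.20, Hist1h4f -0.52, Fetub 0.28, Serpina9 0.33, Cemip 0.09, Pbx3 -0.27, Sox2 0.15, Pknox2 0.06 and Pknox1 -0.07. With the set as a covariate they were Sox2 1.88, Krt13 1.65, Pitx1 1.88, Krt4 0.74 and Pknox1 -0.0041, and in the 4 tumours alone Sox2 1.41, Krt13 1.57, Pitx1 1.72, Krt4 0.35 and Pknox1 -0.06. In Ivl tumours alone Sox2 was 0.03 and Pitx1 0.60. With no covariate Pbx3 was -0.05 and Pknox1 -0.03, with K5 and K14 merged Pbx3 was -0.09, with DESeq2 size factors Pknox1 was -0.01, under the replicate block Sox2 was 0.38, Pitx1 0.08 and Pknox1 -0.05, and without Ivl tumours 2 and 3 Meis3 was 0.07. With 1 tumour left out the ranges across 0 were -0.07 to 0.24 (Pbx3), -0.24 to 0.05 (Pbx2), -0.05 to 1.65 (Meis2), -0.52 to 2.59 (Meis1), -1.16 to 0.49 (Meis3), -0.56 to 0.48 (Pknox1), -2.67 to 0.03 (Sox2) and -3.42 to 0.60 (Pitx1), whose sign turned without Ivl tumour 1 or K5 tumour 1 (Pknox1 also without Ivl tumour 5). The histone genes, Fetub, Serpina9 and Cemip passed in the 15 tumours; the others did not. Depth limits Hoxa11 and Hoxc11 to a few counts.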
